A study of Mus musculus with 12 samples.

Results

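Argonaute (Ago) footprints on 37 genes of DNA replication and nucleotide synthesis were compared between fetal livers without and with the miR-144/451 cluster. The genes were chosen by name, and every Ago peak assigned to 1 of them was kept whatever its position in the transcript, which gave 675 of 106382 peaks. All 37 genes held peaks, among 12102 genes with any. The assay was HITS-CLIP, in which RNA is crosslinked to Ago by ultraviolet light, precipitated and sequenced. A peak is taken to mark a stretch of RNA held by an Ago protein with its miRNA, although peaks can also hold background reads. The groups were miR-144/451-/- (KO) precipitated with an Ago antibody, wild type (WT) precipitated with the Ago antibody, and each genotype precipitated with control IgG, all on C57BL/6J. Each of the 4 groups had 3 libraries, from preparations of 100000000 fetal liver cells. No label states the embryos' age, how the allele was made or whether libraries came from separate livers, so p-values measure the spread between these libraries, which may be technical.

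Cells copy their genome once per division. Origin recognition proteins, Cdc6 and Cdt1 load the Mcm helicase on DNA, Cdc45 and the GINS complex activate it, and polymerases then copy both strands while the Pcna ring holds them on the template. Ribonucleotide reductase and thymidylate synthase make the deoxynucleotides, and Dnmt1 with Uhrf1 copies DNA methylation to the new strand. The fetal liver is a main site of red cell formation before birth, its erythroblasts divide rapidly, and miR-144 and miR-451 are abundant erythroid miRNAs expressed from 1 locus.

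The mature sequences (RefSeq, GRCm38.p6) are shown for the 3 miRNAs that the KO allele removes according to the genotype label and for miR-16-5p, which comes from other loci. A miRNA pairs with its target mainly through its seed, bases 2 to 8, given in capitals.
miR-451a: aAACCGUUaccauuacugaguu
miR-144-3p: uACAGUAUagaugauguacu
miR-144-5p: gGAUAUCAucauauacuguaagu
miR-16-5p: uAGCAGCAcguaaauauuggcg
The 4 seeds differ from each other. A match to the whole seed (7-mer-m8) reads AACGGTT in the target for miR-451a, ATACTGT for miR-144-3p, TGATATC for miR-144-5p and TGCTGCT for miR-16-5p. The deposited peak table scores each peak for such matches, from a full seed match down to a 6-mer, an offset 6-mer or a seed with 1 mismatch.

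The Ago libraries held 147969 to 341061 reads in peaks in KO and 202876 to 452157 in WT, and the IgG libraries held 24622 to 42916 in KO and 25985 to 42399 in WT. None of the peaks lay on the 3 hairpins checked in the miR-144/451 locus, so the genotype rests on the labels. Erythroid marker genes held 0.529% to 0.629% of peak reads in KO Ago libraries and 0.816% to 0.940% in WT Ago libraries, without overlap. In the IgG libraries they held 0.587% to 0.670% in KO and 0.601% to 0.854% in WT, with overlap. These shares count reads in peaks and not cells, and whether they follow cell content was not tested. Of the 11 markers 7 had a peak (the globin symbols Hbb-bt, Hbb-bs, Hba-a1 and Hba-a2 had none). Hepatocyte markers, all 10 with peaks, held 1.12% to 2.23% in KO Ago libraries and 0.600% to 1.81% in WT Ago libraries, highest in KO library 13 and WT library 10. Macrophage (5 of 6 genes with peaks, not Cd68), granulocyte (6 of 6), megakaryocyte (2 of 4, not Itga2b or Gp1ba) and progenitor (3 of 4, not Gata2) markers each held at most 0.183% in any Ago library.

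The 37 genes held between 2 and 53 peaks each, with a median of 16, and between 13 and 1415 Ago reads. Their peaks lay mostly in coding sequence, 477 of 675 (70.7%), against 33.7% of all peaks. The 3′UTR held 139 of them (20.6%, against 28.0% of all peaks), introns 31, the 5′UTR 26 and downstream sequence 2. Some form of match to a miRNA of the deleted locus was scored in 39.6% of the peaks, close to the 40.7% of all peaks.

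Ago reads on the genes made up 0.732%, 0.790% and 0.591% of all peak reads in KO libraries 3, 12 and 13, against 0.930%, 1.01% and 0.695% in WT libraries 1, 9 and 10. The means were 0.704% ± 0.103 in KO and 0.877% ± 0.162 in WT (SD, n = 3 each), and the groups overlapped. The lowest library of each genotype, KO library 13 and WT library 10, was also the one with the highest hepatocyte share, and the part of cell composition in these levels was not tested. In bulk tissue, fewer cells of a type and less RNA per cell cannot be told apart. IgG libraries gave 0.341% ± 0.0990 in KO and 0.389% ± 0.116 in WT, below every Ago library of the same genotype.

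Of the 675 peaks, 23 in 11 genes had enough reads for a test of KO against WT Ago libraries, and 7 of them (30.4%) were lower in KO at an adjusted p under 0.05, while none was higher. Over all 2425 tested peaks of the series 17.6% were lower and 1.4% higher. DESeq2 called 6 of the 23 lower and limma-voom 7, neither called any higher, and at an unadjusted p under 0.05 the counts were 9 lower and 0 higher. The median log2 change was -0.52 over the 23 peaks, with 18 below 0 and a range of -3.90 to 0.74, against a median of 0.09 over all tested peaks. With library size alone for scaling these medians were -0.31, with 13 of 23 below 0, and 0.30. The median over the genes' peaks was -0.16 without KO library 13 (37 of 64 below 0), -0.17 without WT library 1 (12 of 21) and -0.16 without WT library 9 (16 of 24). All KO libraries lay below all WT libraries in 10 of the 23 peaks (22.3% of all tested peaks), and above in 0 (10.1%). A peak was tested if at least 3 libraries exceeded 40.4 reads per 1000000 peak reads. Of the 7 lower peaks 6 passed this filter in WT libraries alone, so they had to differ to enter, and the count does not stand for all 37 genes; the other, in Pcna, passed in all 6 libraries.

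**Figure D1:**
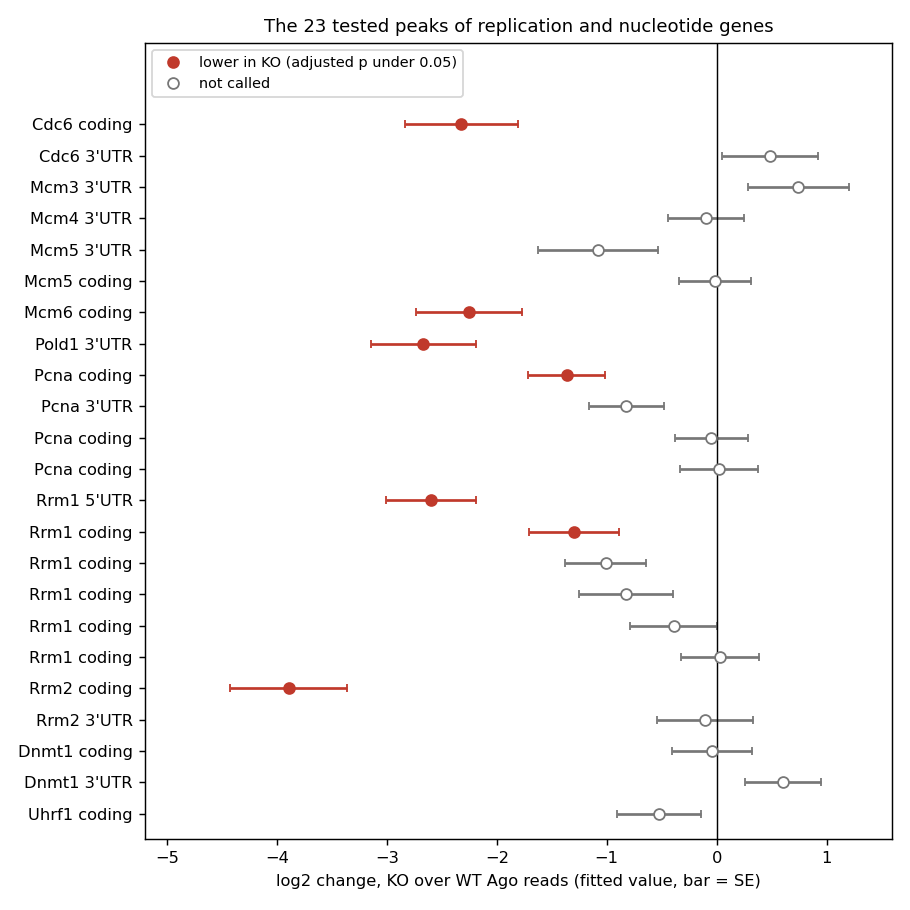
Log2 change of Ago reads, KO over WT (x axis, fitted value with its standard error as the bar), for each of the 23 tested peaks (y axis, gene and place in the transcript, ordered by role); filled points are lower in KO at an adjusted p under 0.05. The 7 filled points lie between -3.90 and -1.30, and the 6 peaks of Rrm1 and 4 of Pcna include both filled and open points.

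Ribonucleotide reductase, which turns ribonucleotides into deoxynucleotides, held 3 of the 7 lower peaks and 8 of the 23 tested peaks. Its small subunit Rrm2 had the largest change in a coding peak at chr12:24711669-24711690 (mm10, plus strand). Scaled levels there were 89.1, 37.9 and 0 CPM (TMM-scaled reads per 1000000 reads in tested peaks) in KO libraries 3, 12 and 13, against 901, 638 and 559 in WT libraries 1, 9 and 10. Every KO library was below every WT library, but the peak passed the filter in WT libraries alone, so this separation was largely set by entry. The means were 42.3 ± 44.7 in KO and 699 ± 179 in WT (SD, n = 3 each), a log2 change of -3.90 ± 0.54 (SE; edgeR quasi-likelihood, Benjamini-Hochberg adjusted p = 1.2e-04). The peak carried 4.05%, 1.63% and 0% of the gene's Ago reads in the KO libraries, against 20.9%, 14.3% and 18.5% in the WT libraries, and no match to a miRNA of the locus was scored in it. The other tested peak of Rrm2, in the 3′UTR, had a log2 change of -0.10 ± 0.44 and was not called (adjusted p = 0.91 by edgeR).

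The large subunit Rrm1 had 6 tested peaks, of which 2 were lower. The 5′UTR peak at chr7:102441849-102441881 (plus strand) gave 149, 171 and 38.0 CPM in KO, against 949, 766 and 690 in WT. Means were 119 ± 71.0 in KO and 802 ± 133 in WT, and the log2 change was -2.60 ± 0.41 (edgeR adjusted p = 2.6e-04). This 5′UTR peak also passed the filter in WT libraries alone. It was scored as a miR-451a seed match with a mismatch at position 7 and a miR-144-3p match with a mismatch at position 6. A coding peak at chr7:102468300-102468390 gave 238, 133 and 76.1 CPM in KO, against 389, 351 and 394 in WT, with no match scored. The log2 change was -1.30 ± 0.41 (edgeR adjusted p = 0.035), and only 3 of 12 alternative settings kept the call, with adjusted p between 0.016 and 0.25. Among the 4 peaks of Rrm1 that were not called, log2 changes ran from -1.01 ± 0.37 to 0.03 ± 0.36. That at -1.01, at chr7:102466887-102466939, had an edgeR adjusted p of 0.075, and of 0.041 without WT library 10.

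In the polymerases, 1 peak was tested and it was lower. Pold1, the catalytic subunit of the polymerase delta that copies mainly the lagging strand, had a 3′UTR peak with a 7-mer-m8 miR-451a site at chr7:44533257-44533291 (minus strand). Levels were 119, 75.8 and 76.1 CPM in KO, against 876, 399 and 493 in WT. Means were 90.2 ± 24.8 in KO and 589 ± 253 in WT, a log2 change of -2.67 ± 0.48 (edgeR adjusted p = 6.1e-04). It passed the filter in WT libraries alone, so the separation of the groups was largely set by entry. The peak held 25%, 11.4% and 20% of the Ago reads on Pold1 in KO, against 57.1%, 41.0% and 53.6% in WT.

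In the licensing and helicase genes, 2 peaks were lower. Mcm6, a subunit of the ring-shaped helicase, had a coding peak at chr1:128335819-128335852 (minus strand) with 29.7, 94.8 and 114 CPM in KO, against 292, 511 and 329 in WT. Means were 79.5 ± 44.2 in KO and 377 ± 117 in WT, and the log2 change was -2.25 ± 0.48 (edgeR adjusted p = 0.0026). This peak also passed the filter in WT libraries alone. Its only scored match to the locus was to miR-144-3p with a mismatch at position 2. Cdc6, which loads the helicase, had a coding peak at chr11:98913911-98913944 (plus strand) with 149, 37.9 and 76.1 CPM in KO, against 609, 303 and 362 in WT, and no scored match. The log2 change was -2.33 ± 0.51 (edgeR adjusted p = 0.0033). Its reads agreed within 10% with those of a peak on the pseudogene Gm9430, so their assignment to Cdc6 is uncertain. The other tested peak of Cdc6, in the 3′UTR at chr11:98921777-98921800, had a log2 change of 0.48 ± 0.44 and was not called (edgeR adjusted p = 0.54).

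The sliding clamp Pcna had 4 tested peaks, of which 1 was lower, a coding peak at chr2:132249841-132249876 (minus strand). Levels were 446, 322 and 380 CPM in KO, against 1388, 846 and 690 in WT. The groups did not overlap, at 383 ± 61.7 in KO and 975 ± 366 in WT, a log2 change of -1.37 ± 0.35 (edgeR adjusted p = 0.0097). The call was lost with all 12 libraries in the fit (0.081) and without KO library 12 (0.052). Its scored match was to miR-451a with a mismatch at position 4. Of the other Pcna peaks, the 3′UTR peak at chr2:132249564-132249600 had a log2 change of -0.82 ± 0.34 (edgeR adjusted p = 0.12), and coding peaks with changes of -0.05 ± 0.33 and 0.02 ± 0.36 lay close to no change. Reads of 3 Pcna peaks matched those of the processed pseudogene Pcna-ps2 within 10%, and the 3′UTR peak is 1 of them.

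**Figure D2:**
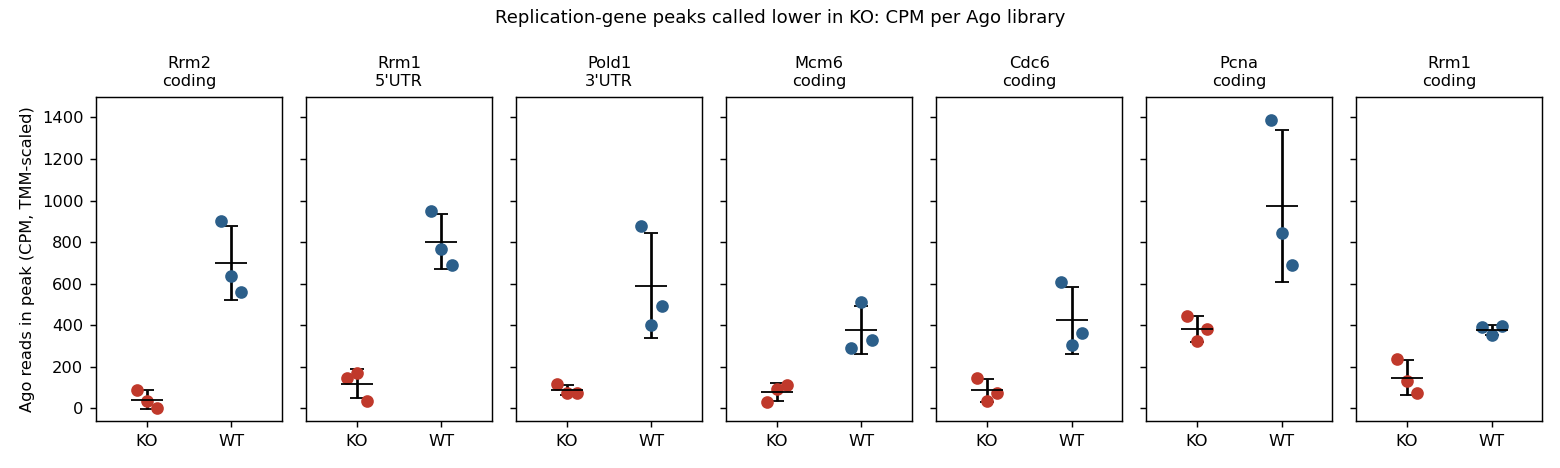
Ago reads per 1000000 reads in tested peaks (y axis, CPM) for the 7 peaks lower in KO, 1 panel each, with KO libraries left of WT libraries (points, 1 per library; black marks, mean with its SD). In each panel the 3 KO points lie below the 3 WT points, and the Rrm2 coding peak reaches 0 in KO library 13. All but the Pcna peak passed the filter in WT libraries alone, so their separation was largely set by entry.

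The genes whose tested peaks were not called had values on both sides of 0. Mcm5, another helicase subunit, had a 3′UTR peak with a 7-mer-m8 miR-144-3p site at chr8:75127451-75127515 with 59.4, 360 and 38.0 CPM in KO, against 316, 543 and 263 in WT. KO library 12 lay above 2 of the WT libraries, and the log2 change of -1.08 ± 0.54 was not called (edgeR adjusted p = 0.23). The 3′UTR peak of Mcm3 gave 327, 1099 and 685 CPM in KO, against 170, 654 and 427 in WT, a log2 change of 0.74 ± 0.46 with overlapping groups (edgeR adjusted p = 0.36). That of Dnmt1, the maintenance DNA methyltransferase, gave 713, 986 and 533 CPM in KO, against 633, 543 and 296 in WT, a log2 change of 0.60 ± 0.35 (edgeR adjusted p = 0.31). For Uhrf1, which recruits Dnmt1, a coding peak gave 178, 171 and 228 CPM in KO, against 292, 239 and 296 in WT; the groups did not overlap, but its log2 change of -0.52 ± 0.38 was not called (edgeR adjusted p = 0.44). The 3′UTR peak of Mcm4 had a log2 change of -0.09 ± 0.35 (edgeR adjusted p = 0.89).

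The remaining 26 genes had no tested peak. With no filter on low counts, all 675 peaks entered a fit over 106381 peaks, and 34 peaks in 22 genes (5.04%) were lower in KO and 0 higher, against 2.54% lower and 0.0329% higher over all peaks. Of the 34, 24 lay in coding sequence, 6 in the 3′UTR and 4 in the 5′UTR, and 6 were among the 7 called with the filter (not the Rrm1 coding peak). In 10 of them no KO read was seen at all. Together the 34 peaks held 148 KO and 1261 WT Ago reads. The other peaks of the 37 genes held 4876 KO and 7412 WT reads, a ratio of 0.658, where the ratio of all peak reads was 0.726. Because the 34 were picked by this contrast, these sums describe where the reads lay.

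In the following, reads are summed over the 3 libraries of each genotype, folds are WT over KO after scaling to all peak reads, and their exact 95% intervals and bounds cover counting error only. In Mcm2, a helicase subunit, a coding peak at chr6:88887723-88887753 had 1 KO and 41 WT reads, 29.8-fold higher in WT (5.05 to 1204). Its most covered peak, in the 3′UTR, had 23 KO and 24 WT reads. In Pola1, the catalytic subunit of the polymerase that starts new strands, a coding peak at chrX:93480493-93480522 had 0 KO and 28 WT reads, at least 6.78-fold higher in WT when 3 reads are put in place of 0. Another coding peak of Pola1, at chrX:93490837-93490880, had 32 KO and 28 WT reads. In both genes the lower peak and the most covered peak had different ratios of reads, a difference that was not tested.

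Cdc45, which with the Mcm ring and GINS forms the active helicase, had 3 lower coding peaks in the unfiltered fit. That at chr16:18807280-18807304 holds a 7-mer-A1 match to miR-451a (bases 2 to 7 plus an A) and had 0 reads in each KO library, against 8, 12 and 4 in WT libraries 1, 9 and 10. A neighbour at chr16:18807314-18807334 without a scored match had 0 KO and 17 WT reads, and a peak at chr16:18810427-18810452 had 1 KO and 16 WT reads. Of the reads on other peaks of Cdc45, 31 were from KO and 92 from WT, a ratio of 0.337. These include its most covered peak, in the 3′UTR at chr16:18780484-18780559, with 11 KO and 15 WT reads. After scaling to all peak reads, the levels of that peak were nearly equal in KO and WT. It was chosen by coverage and the lower peaks by the contrast, and its reads were few. Whether the change differed between the peaks of Cdc45 was not tested.

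Others with a 6-mer or longer match were found among the polymerases and chromatin genes. Pole, the leading strand polymerase, had 2 KO and 28 WT reads in a 3′UTR peak with a 6-mer of miR-451a at chr5:110337417-110337450, 10.2-fold higher in WT (2.56 to 88.1). Dnmt1 had 1 KO and 24 WT reads in a 5′UTR peak with a 7-mer-m8 of miR-451a at chr9:20941485-20941507, 17.4-fold higher in WT (2.84 to 717). Atad2, a bromodomain ATPase of dividing cells, had 3 lower coding peaks. That at chr15:58096685-58096705, with a miR-451a 6-mer, had 0 KO and 18 WT reads, and that at chr15:58106788-58106810 had 4 KO and 33 WT reads over a 7-mer-A1 of miR-144-3p. Rfc4, a subunit of the clamp loader, had 1 KO and 35 WT reads in a 3′UTR peak without a scored match (25.4-fold higher in WT, 4.27 to 1032). That peak also held 3 reads in KO IgG library 14 and 1 in the WT IgG libraries, and its excess over background was not tested.

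Lower peaks without a 6-mer were also found in Mcm3, Mcm4, Mcm7, Gins1, Rpa2, Rfc1, Fen1, Lig1 and Tyms. Rpa2, which coats single-stranded DNA, had 0 KO and 17 WT reads in a 3′UTR peak. Lig1, which seals lagging strand fragments, had 0 KO and 15 WT reads in a coding peak, and Fen1, which trims those fragments, had 4 KO and 28 WT reads. For Gins1, a GINS subunit, the peak with 4 KO and 29 WT reads was also its most covered, and the gene's other peaks had 11 reads in each genotype.

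For the other genes with no tested peak, the most covered peak is given. Such peaks were chosen by coverage and the lower peaks above by the contrast, so the evenness of their reads cannot be compared. The most covered peaks had 14 KO and 23 WT reads in Orc6, 19 and 24 in the licensing factor Cdt1, 20 and 40 in Mcm7, and 10 and 23 in Mcm10. In the clamp loader they had 20 KO and 10 WT reads in an intron of Rfc1, 22 and 24 in the 3′UTR of Rfc2, and 17 and 13 in Rfc3. Those of Rpa1 had 12 KO and 12 WT reads, of Rpa2 24 and 32, of Fen1 16 and 31, and of Lig1 15 and 27. In the thymidine pathway, thymidylate synthase (Tyms) had 20 KO and 17 WT reads in its 5′UTR, and thymidine kinase (Tk1) 22 and 18 in a coding peak whose counts match the pseudogene Gm6091 within 10%. Atad2 had 16 and 40. In Orc1, Gins2, Pola2, Prim1, Prim2 and Rfc5 no peak reached 20 Ago reads.

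**Figure D3:**
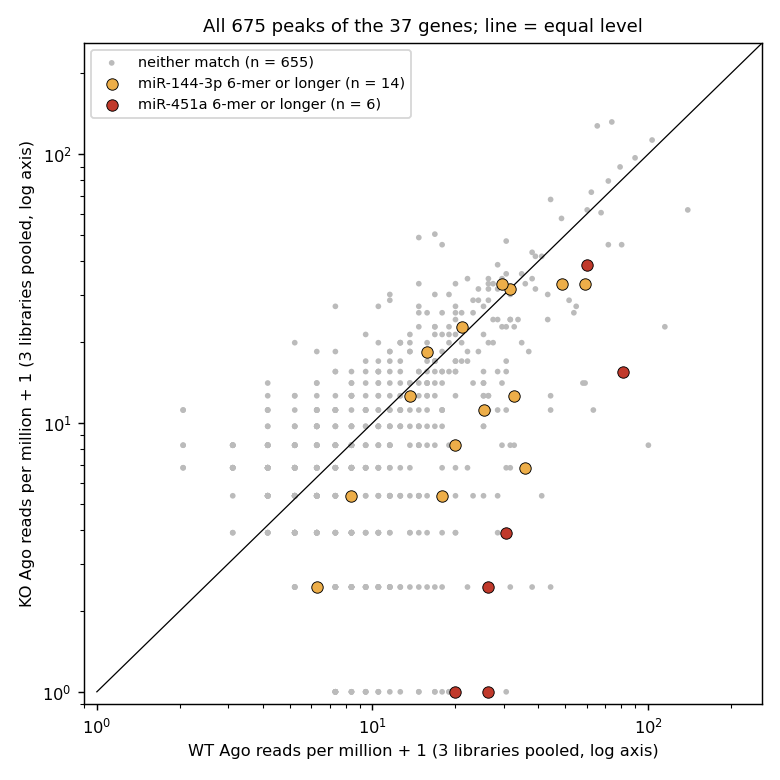
KO Ago reads per 1000000 peak reads (RPM) + 1 (y axis, log scale) against WT RPM + 1 (x axis, log scale) for all 675 peaks, 3 libraries pooled per genotype; the line marks equal levels and colours mark seed matches of 6 or more bases. The 6 peaks with a miR-451a match lie below the line, and the 32 peaks without a KO read lie along the bottom edge.

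Sorting all peaks of the 37 genes by their seed matches gave different levels for the miRNAs. The 6 peaks with a 6-mer or longer match to miR-451a (in Pold1, Dnmt1, Cdc45, Pole, Atad2 and Rrm1) had summed Ago levels of 85.5, 38.1 and 60.8 RPM (reads per 1000000 peak reads) in KO, against 325, 188 and 227 in WT. All KO values were below all WT values, and 5 of the 6 peaks were lower in the unfiltered fit, where 36.0% of the 1095 such peaks of the series were lower. The other was a coding peak of Rrm1 at chr7:102467040-102467064, with a log2 change of -0.92 in the unfiltered fit (edgeR adjusted p = 0.34) and of -0.82 ± 0.43 with the filter (edgeR adjusted p = 0.25). With the filter, 79 of the 84 such peaks tested over the series were lower (94.0%). Of the 2 tested here 1 was lower, in Pold1, so the share of 36.0% depends on depth. The 14 peaks with a 6-mer or longer match to miR-144-3p had 176, 299 and 108 RPM in KO, against 312, 427 and 242 in WT, overlapping, and 1 of them, in Atad2, was lower in the unfiltered fit (8.42% over the series). The 6 peaks with a match to miR-144-5p had 136, 123 and 94.6 in KO, against 188, 133 and 104 in WT, and none was lower (5.04% over the series). For miR-16-5p, 33 peaks had 634, 651 and 446 in KO, against 750, 568 and 439 in WT, and none was lower (0.736% over the series).

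Lower peaks were found with and without a match. Of the 34 lower peaks 13 had no scored match to any miRNA of the locus, and 15 had only an offset or mismatched one. The 408 peaks without a match held 4185, 4460 and 3372 RPM in KO, against 4736, 5401 and 3643 in WT, with overlap. Among tested peaks of the whole series, 352 of 1215 with a match of any kind were lower, against 76 of 1210 with none. Among the 23 tested here, 4 of 13 with a match and 3 of 10 without one were lower.

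Summing all Ago reads of a gene asks whether its footprint as a whole differed. Of the 31 genes tested, 3 (9.68%) were lower in KO and 0 higher by edgeR, against 5.29% lower and 0.653% higher of 4441 genes. DESeq2 called 1 lower and 0 higher, and at an unadjusted p under 0.05 there were 11 lower and 1 higher. The median log2 change was -0.39, with 26 of 31 genes below 0, against 0.03 over all genes tested. All KO libraries lay below all WT libraries in 11 genes (15.4% of all tested genes).

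Cdc45 had the largest change, with 58.5, 56.0 and 86.6 CPM of all gene reads in KO, against 228, 236 and 179 in WT. The groups did not overlap, at 67.0 ± 17.0 in KO and 214 ± 31.1 in WT, and the log2 change was -1.76 ± 0.28 (edgeR adjusted p = 0.0021, at most 0.026 over 13 alternatives). Orc1, the largest origin recognition subunit, had 29.2, 22.4 and 28.9 CPM in KO, against 114, 67.8 and 64.3 in WT, from 13 KO and 54 WT reads in all, and it passed the filter in WT libraries alone. Its log2 change of -1.64 ± 0.46 (edgeR adjusted p = 0.049) was called in 3 of 10 alternatives. Rrm2 had 541, 459 and 481 CPM in KO, against 919, 822 and 657 in WT. Its groups did not overlap either, and its log2 change of -0.71 ± 0.19 (edgeR adjusted p = 0.042) was called in 4 of 13 alternatives.

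Other genes were not called at this depth. By role, the licensing and helicase genes had a median log2 change of -0.33 over 12 genes (2 of them lower), the polymerases and primase -0.53 over 4, the clamp, its loader and strand processing -0.35 over 8, nucleotide supply -0.61 over 4 (1 lower) and Dnmt1, Uhrf1 and Atad2 -0.37 over 3. Among the helicase genes, Mcm10 had a log2 change of -0.71, Mcm7 -0.52, Mcm6 -0.50, Mcm2 -0.38, Mcm4 -0.29, Mcm5 -0.05 and Mcm3 0.05. The loading factors Cdc6 and Cdt1 had changes of -0.14 and 0.23, and the origin recognition subunit Orc6 of 0.03. Pold1 had 117, 131 and 96.2 CPM in KO, against 327, 180 and 200 in WT, a log2 change of -0.98 ± 0.29 (edgeR adjusted p = 0.060) that was called without WT library 10, without WT library 9 and with exon peaks alone. The other polymerase genes had changes of -0.57 in the primase subunit Prim2, -0.49 in Pola1 and -0.42 in Pole.

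At the fork, log2 changes were -0.65 in Lig1, -0.47 in Pcna, -0.39 in Rpa1, -0.36 in Rfc1, -0.35 in Rpa2, -0.21 in Fen1, -0.02 in Rfc3 and 0.21 in Rfc2. In nucleotide supply, Tyms had a log2 change of -0.67 ± 0.32 and Rrm1 of -0.54 ± 0.24 (edgeR adjusted p = 0.23 and 0.21). Tk1 had 117, 157 and 164 CPM in KO, against 98.7, 109 and 78.5 in WT. All KO libraries lay above all WT libraries, but the log2 change of 0.58 ± 0.27 was not called (edgeR adjusted p = 0.23). Atad2 had a log2 change of -0.48, Uhrf1 of -0.37 and Dnmt1 of -0.03. The sums of Gins1, Gins2, Pola2, Prim1, Rfc4 and Rfc5 were too low to test.

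**Figure D4:**
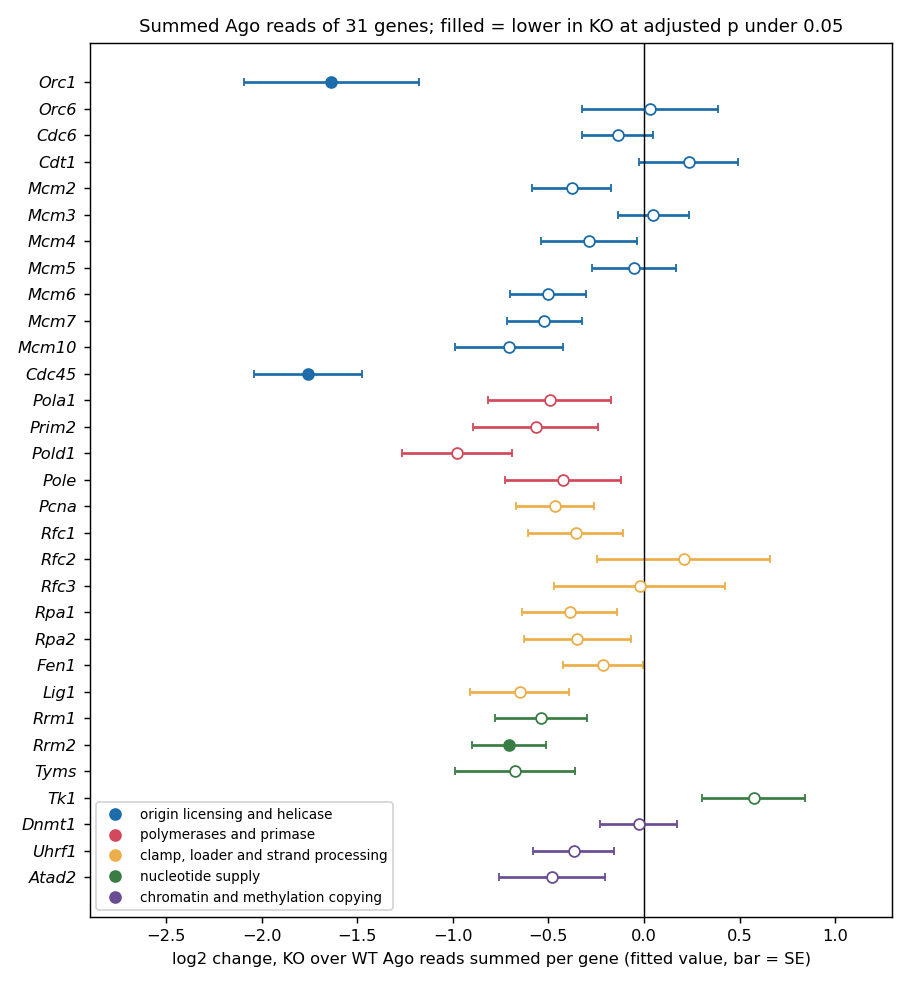
Log2 change of Ago reads summed over all peaks of a gene, KO over WT (x axis, fitted value with its standard error as the bar), for the 31 tested genes (y axis, ordered and coloured by role). Filled points mark Cdc45, Orc1 and Rrm2, lower in KO at an adjusted p under 0.05; 26 of the 31 points lie below 0.

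The IgG libraries measured the background of the precipitation. In WT, 4 peaks of the 37 genes were deep enough to compare Ago with IgG, of which 3 were higher with Ago (35.9% of 894 tested peaks) and 1 lower (37.9%). All 4 passed the filter in the libraries of 1 antibody alone, 3 through Ago and 1 through IgG, so the direction was fixed by entry and the values describe the reads. The higher ones were the Rrm2 coding, Rrm1 5′UTR and Pcna coding peaks that were also lower in KO, with 94, 108 and 131 reads in the WT Ago libraries together, against 1, 2 and 4 in the WT IgG libraries. The lower one was an intronic peak of Pola2, a subunit of the priming polymerase, at chr19:5955393-5955413. It had 2, 1 and 0 reads in KO Ago libraries 3, 12 and 13, against 5, 10 and 4 in KO IgG libraries 4, 8 and 14. In WT it had 0, 2 and 3 reads in Ago libraries 1, 9 and 10, against 8, 13 and 7 in IgG libraries 2, 6 and 11. Its log2 changes were -2.58 ± 0.65 in KO, the only tested peak of the genes there and again passing through IgG alone, and -3.21 ± 0.50 in WT (edgeR adjusted p = 0.0065 and 2.9e-04), where 23.3% and 37.9% of all tested peaks were lower with Ago. Of the 645 peaks tested in KO, 40% were higher with Ago. The Pola2 peak was the only 1 of the 675 with more IgG than Ago reads in raw counts. Peaks were called on pooled Ago libraries, and the Ago libraries were several times deeper. Raw counts therefore do not show that the other peaks were above background.

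Whether the genotype difference depended on the antibody was tested as an interaction over 1364 peaks. None of the 4 peaks of the genes in that test (in Mcm3, Dnmt1, Mcm5 and Pola2) was called by edgeR or DESeq2, none reached an unadjusted p under 0.05, and 0% of all peaks were called. In simulated data this test recovered 0% of 2-fold and 17% of 4-fold changes, so the lack of calls does not show that the genotype difference was the same with both antibodies. None of the 7 lower peaks entered this test, so for them the difference between antibodies was not tested.

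Other genes of the same pathways were examined through lists of further replication genes (41 genes, 40 with peaks) and further nucleotide synthesis genes (31 genes, 26 with peaks). Of 8 tested peaks on the replication list 1 was lower and 0 higher by edgeR (17.6% lower over all tested peaks), with a median log2 change of -0.52. This was an intronic peak of Wdhd1, which tethers the priming polymerase to the helicase, at chr14:47267071-47267099, with 0, 19.0 and 0 CPM in KO, against 852, 495 and 625 in WT (log2 change -5.78 ± 0.67, edgeR adjusted p = 7.1e-05). Of 28 gene sums on it, 3 were lower (5.29% over all tested genes), Orc5 (-1.07 ± 0.21), Asf1b (-1.12 ± 0.26) and Wdhd1 (-0.91 ± 0.25), with edgeR adjusted p of 0.0085, 0.023 and 0.041 and a median log2 change of -0.16. On the nucleotide list 1 of 3 tested peaks was lower (17.6% over all tested peaks), in the 3′UTR of Dut, which removes dUTP, at chr2:125257651-125257675. It had 0, 19.0 and 38.0 CPM in KO, against 316, 335 and 362 in WT (log2 change -4.03 ± 0.61, edgeR adjusted p = 2.0e-04). The Wdhd1 and Dut peaks passed the filter in WT libraries alone, so they had to differ to enter the test. Of 21 gene sums on that list 1 was lower, the mitochondrial folate enzyme Mthfd2 (-1.07 ± 0.24, edgeR adjusted p = 0.020), and the median was -0.17.

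The authors' deposited table of KO against WT comparisons lists 42 peaks of the 37 genes, of which 23 in 16 genes are lower and 0 higher at its adjusted p under 0.05. Over all 6651 peaks that the authors' deposited table lists, 35.7% are lower and 1.29% higher. It lists 5 of the 7 lower peaks, all as lower, and not the Pcna coding peak or the Rrm1 peak at chr7:102468300-102468390. Of the 23 lower peaks in the authors' deposited table, 16 were below the filter used here and 15 were lower in the unfiltered fit. The authors' deposited table gives the Mcm5 3′UTR peak and the Rrm1 peak at chr7:102467040-102467064 as lower, with log2 changes of -1.92 and -1.29, where the filtered fit gave -1.08 and -0.82 and called neither.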

How the data were processed

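The peak table was used as deposited by the authors. Its counts are raw reads, counted by the authors where they overlapped a peak by at least 16 bases, for 12 libraries, on mm10 peaks called on pooled Ago libraries. It also holds the authors' maximum coverage (signal) per library and seed-match scores. The submitters' processing notes name cutadapt, STAR, bedtools and limma, without versions. The authors' deposited comparison table gives log2 changes and p-values. The changes are read as log2, which voom gives.

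Counts of all peaks, or summed per gene, were fitted with edgeR 4.0.16 (R 4.3.3; TMM scaling, filterByExpr with at least 10 reads, quasi-likelihood test), and p-values were adjusted over all tested features by the Benjamini-Hochberg method, with 0.05 as the threshold. DESeq2 1.42.0, limma-voom (limma 3.58.1), other scalings and filters, and leaving out each library were alternatives. The fits were tested on simulated data, where the peak fit of KO against WT recovered 32% of 2-fold and 89% of 4-fold changes. The gene fit recovered 45% and 92% of them. In the peak fit 1 read was worth 16.0 to 38.0 CPM, which limits weak peaks, and in the gene fit 2.95 to 9.62. The members and lists were chosen with earlier results of these data known. Named are all called peaks, otherwise the tested peak with the smallest p, otherwise the peak with the most Ago reads if at least 20, and all tested gene sums. Counts within 10% of another peak's in the libraries were searched for in 217 peaks and found in 13. Peak sequences were not used here.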

Additional observations from a re-analysis of the deposited data

How the results depend on the processing

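The count of 7 lower peaks in KO was 34 with no filter, 4 among peaks in the authors' filtered set, and 4 to 16 when 1 library was left out: 16 without KO library 3, 11 without KO library 13, 12 without WT library 10 and 4 without WT library 1, with 0 to 2 peaks higher. Rrm2, Rrm1 (5′UTR) and Pold1 were called lower in all 14 alternatives. The 3 genes with lower sums became 1 by library size alone, by DESeq2 or with all 12 libraries, and 1 to 4 with 1 library left out, 1 without any of KO libraries 3, 12 and 13 or WT library 1. Peaks higher with Ago than with IgG numbered 71 in WT and 21 in KO with no filter, and 0 to 17 in WT and 0 to 8 in KO with 1 library left out. The lower count in KO was then 0 to 1. As a share of reads in peaks with a gene name, the genes held 0.856% in KO and 1.07% in WT. Leaving out a library changes which peaks pass the filter and leaves 2 libraries in an arm; the cause of other differences was not tested. Of single peaks and genes under these settings, 606 values kept direction and side of the threshold, 27 lost a call, 4 gained one and 56 changed otherwise, and none that was called changed sign. Depth also limits the report, since 1 read can be worth 38.0 CPM. The labels do not say which libraries, if any, share a preparation or batch, so no paired analysis was made and batch was not tested.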
